A study of Mus musculus with 28 samples.

Results

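The genes described here are the proteasome subunits and their assembly factors, chosen by gene symbol as every line whose name begins with Psma, Psmb, Psmc, Psmd, Psme, Psmf or Psmg followed by a digit. This rule found 50 genes among the 20416 lines of each of 3 tables of mouse liver messenger RNA. By their known roles they were 7 alpha ring subunits, 4 structural and 3 catalytic subunits of the constitutive beta ring, and 3 catalytic subunits of the immunoproteasome. A further 6 were ATPases and 11 were non-ATPase subunits of the regulatory particle, and 2 were forms of the core known from testis or thymus. The remaining members were 4 activator genes, 1 inhibitor, 4 chaperones of core assembly, 3 chaperones of regulatory particle assembly, and 2 genes, Psmc3ip and Psme2b, that match the name pattern and were kept apart. Psmc3ip encodes a partner of the meiotic recombinases that takes its name from an interaction with an ATPase of the regulatory particle, and Psme2b is a copy of the activator gene Psme2. The 31 constitutive subunits of the core and the regulatory particle are called the constitutive subunits below, and Psmb8, Psmb9, Psmb10, Psme1 and Psme2 are called the 5 immunoproteasome genes.

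The proteasome is a barrel of stacked rings in which proteins tagged with ubiquitin are unfolded and cut into peptides. Its outer alpha rings gate the entrance, its inner beta rings hold the cutting sites, and the regulatory particle on each end recognises ubiquitin chains and feeds the substrate in with its ATPases. Under interferon the catalytic subunits Psmb5, Psmb6 and Psmb7 are replaced in newly built barrels by Psmb8, Psmb9 and Psmb10, and the PA28 activator made of Psme1 and Psme2 is produced. The resulting immunoproteasome is known for generating peptides suited to presentation on class I molecules. Liver cells, which carry a large load of protein synthesis, hold mainly constitutive proteasomes.

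Libraries were made from livers of male C57BL/6 mice in 2 studies of steatohepatitis, with 28 samples in all. In the first, 4 libraries from mice fed a diet lacking methionine and choline (MCD) were set against 4 from mice fed its matched low-fat control diet (CD). Their titles give 4 weeks of diet and another label gives a duration of 5 weeks. In the second, called STAM, mice received streptozotocin, a toxin of the pancreatic beta cells, on postnatal day 2 and a high-fat diet from week 4. At 4 and at 10 weeks of age, 5 STAM libraries were compared with 5 from mice on a control diet (Ctrl). Each library is called a liver below. The 4-week STAM livers carry a label of 4 weeks of high-fat diet. This conflicts with a start of that diet at week 4, so their time on it is unclear. Whether the Ctrl mice had a sham injection and how old the mice of the diet study were are not stated in the labels. The labels name no genetic alteration in any group. Whether each replicate is its own mouse is not stated either, so the p-values speak for the spread among these libraries, part of which may be technical.

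Values are the deposited log2 CPM (log2 of the reads of a gene per 1 M reads of the library, M being mega), which the authors scaled within each table, so levels were compared only within a table. Libraries held 16.2 to 25.9 M assigned reads. Of the 50 members, 49 passed the filter on low values in each table, as did 15312 of all 20416 genes. A member was called when the Benjamini-Hochberg adjusted p of limma over all genes tested was under 0.05 (two-sided). The choice of scaling set the direction of many small differences: in place of the authors' factors (0.832 to 1.23 times the read total), scaling by total reads raised the median difference of all genes by 0.42 in MCD, by 0.29 in STAM at 10 weeks and by 0.08 in STAM at 4 weeks on the log2 scale. It also moved the share of called genes that were higher from 52.9% to 86.1% in MCD, from 53.0% to 88.0% at 10 weeks and from 66.6% to 83.7% at 4 weeks. The members were therefore compared under 4 scalings, namely the authors' own, quantile normalization, total reads, and the mean of the 31 constitutive subunits, the last of which was chosen after seeing the data. In bulk tissue, fewer cells of a type and less RNA per cell cannot be told apart.

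Across the 3 comparisons Psmb8 and Psmb9 fell in MCD and rose in STAM at both ages. Most called constitutive subunits were lower in MCD and in STAM at 10 weeks under the authors' scaling. Other called members, such as Psmd8 and Psmf1, followed neither pattern, and 16 members were not called in any comparison under that scaling. In MCD 2 of the 49 tested members were higher and 19 lower, beside 22.6% and 20.1% of all genes tested. The members' median difference was -0.16 and that of all genes was 0.07. At 4 weeks of STAM 4 members were higher, beside 6.52% of all genes, and limma called 0 lower, beside 3.27% (9.8% in either direction). At an unadjusted p under 0.05 the 4-week counts were 10 higher and 0 lower, and limma voom on the recovered reads also called 0 lower. At 10 weeks 6 members were higher and 24 lower, beside 25.3% and 22.5% of all genes, with a median of -0.22 for the members and 0.05 for all genes. Without regard to the test, 3 members lay above and 17 below their controls with no overlap in MCD (20.9% and 19.2% of all genes did), 7 above and 0 below at 4 weeks (6.38% and 3.67%), and 5 above and 20 below at 10 weeks (16.8% and 16.3%). The share of members called in either direction was 42.9% in MCD against 42.7% of all genes, so the total was near the background there, and 61.2% against 47.8% in STAM at 10 weeks. Without MCD replicate 3 the count of lower members in MCD was 12, beside 18.1% of all genes.

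Psmb8, the immunoproteasome subunit that takes the place of Psmb5, was lower in MCD livers and higher in STAM livers. In the CD livers it stood at 4.82, 4.70, 4.87 and 4.74 log2 CPM, and in the MCD livers at 3.98, 3.37, 3.97 and 3.70. Every MCD liver was below every CD liver. The difference was -1.03 on the log2 scale (SE 0.14), or 51.0% less, with an adjusted p of 8.38e-05 by limma. In the 4-week Ctrl livers Psmb8 was at 3.65, 4.24, 3.83, 4.30 and 4.02, and in the 4-week STAM livers at 4.78, 4.94, 4.99, 4.86 and 4.79. The STAM livers were all above the Ctrl livers and varied less, and the difference was 0.86 (SE 0.12, limma adjusted p = 0.00062). At 10 weeks Psmb8 was at 4.34, 3.78, 4.34, 4.00 and 3.95 in Ctrl and at 4.95, 5.04, 4.89, 4.83 and 4.75 in STAM. These groups were apart as well, by 0.81 (SE 0.11, limma adjusted p = 6.01e-05). Each of the 3 calls of Psmb8 held under all 4 scalings, with differences from -1.03 to -0.61 in MCD, 0.82 to 0.94 at 4 weeks and 0.81 to 1.10 at 10 weeks.

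Psmb9, which takes the place of Psmb6, moved in the same directions and by the largest amount of all called members in STAM at 10 weeks. It was at 4.29, 4.08, 4.22 and 4.04 log2 CPM in CD and at 3.52, 2.90, 3.64 and 3.30 in MCD. No MCD liver reached a CD liver, and the difference was -0.82 (SE 0.16, limma adjusted p = 0.00116). The MCD difference of Psmb9 scaled by total reads was -0.39 and missed the threshold (limma adjusted p = 0.0529). At 4 weeks it was at 2.65, 3.49, 2.88, 3.29 and 3.62 in Ctrl and at 4.00, 4.12, 4.21, 3.91 and 4.06 in STAM, a difference of 0.88 (SE 0.17, limma adjusted p = 0.00573). At 10 weeks the Ctrl livers were at 3.36, 2.30, 2.61, 3.11 and 2.82 and the STAM livers at 4.36, 4.57, 4.32, 4.47 and 4.19. All STAM livers were above all Ctrl livers at both ages, and the 10-week difference of 1.54 (SE 0.17, limma adjusted p = 1.48e-05) was an increase of 192%. Both STAM calls of Psmb9 held under all 4 scalings.

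Psmb10, which takes the place of Psmb7, did not pass the test in any comparison under any of the 4 scalings. Its levels were 3.55, 3.58, 3.36 and 3.62 log2 CPM in CD and 3.17, 3.25, 3.49 and 3.68 in MCD, which overlapped. At 4 weeks it was at 4.24, 4.47, 4.23, 4.13 and 4.16 in Ctrl and at 4.14, 4.67, 4.34, 4.51 and 4.30 in STAM. At 10 weeks the values were 4.42, 3.73, 4.25, 4.04 and 4.26 in Ctrl and 4.19, 4.14, 4.18, 4.17 and 3.66 in STAM. The differences with their 95% intervals were -0.13 (-0.44 to 0.17) in MCD, 0.15 (-0.08 to 0.38) at 4 weeks and -0.07 (-0.37 to 0.22) at 10 weeks. These upper bounds lie below the measured STAM differences of Psmb8 and Psmb9.

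**Figure D1:**
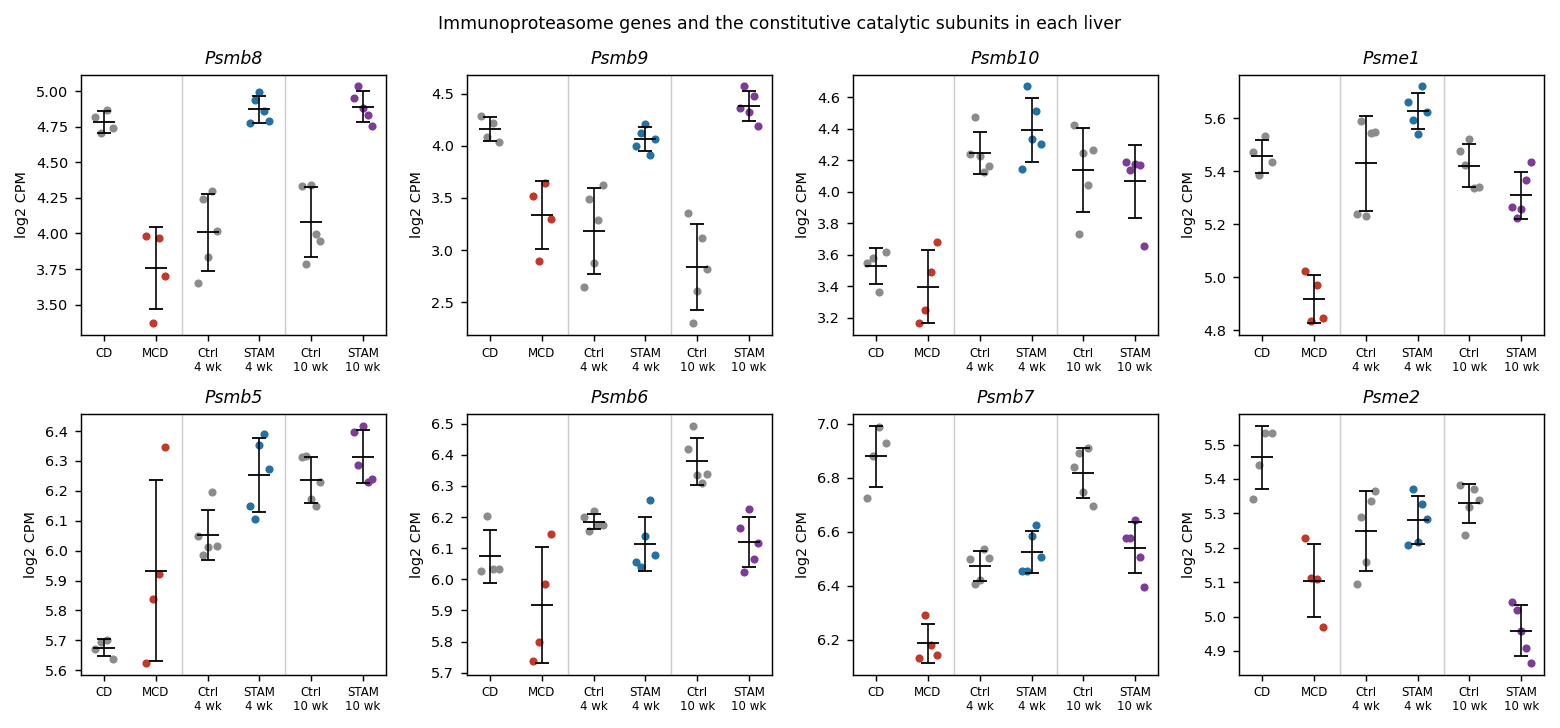
Level of the 5 immunoproteasome genes and the 3 constitutive catalytic subunits in each liver, with log2 CPM on the vertical axes and the 6 groups on the horizontal axes. Points are livers, bars are the group mean with 1 SD, and grey lines part the 3 tables, which were scaled separately. Psmb8 and Psmb9 lie lower in MCD and higher in both STAM groups than in their controls with no overlap, while Psmb10 overlaps in each table.

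Psmb8 and Psmb9 lie in 1 stretch of chromosome 17 with Tap1 between them and Tap2 beside Psmb8, the genes of the peptide transporter that carries proteasome products into the endoplasmic reticulum, whereas Psmb10 lies on chromosome 8 and Psmb5 on chromosome 14. On mm10, Psmb9 spans bases 34182099 to 34187330 on the minus strand, Tap1 bases 34187556 to 34197225, Psmb8 bases 34198195 to 34201454 and Tap2 bases 34204479 to 34216321, the last 3 on the plus strand. This stretch of 34.2 kb held only these 4 lines of the tables. Psmb9 and Tap1 are transcribed away from each other across a gap of 225 bases. In MCD the differences along the stretch were -0.82 for Psmb9, -0.97 for Tap1, -1.03 for Psmb8 and -0.15 for Tap2, of which Tap2 was not called (limma adjusted p = 0.497). At 4 weeks they were 0.88, 0.82, 0.86 and 0.31 in the same order, again without a call for Tap2 (limma adjusted p = 0.111). At 10 weeks they were 1.54, 1.26, 0.81 and 0.93, and each of the 4 genes passed the test. So Psmb9, Tap1 and Psmb8 changed in 1 direction in each comparison, and Tap2 passed only at 10 weeks.

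The bases upstream of these genes are shown for Psmb8 and Psmb9, which were called in the same direction in each comparison, for Psmb10, which was not called, and for Psmb5, the constitutive counterpart of Psmb8. They come from RefSeq on GRCm38.p6, run 5′ to 3′ on the strand of the gene and end at the base before its start. Capitals mark the motifs found. Psmb9 is the whole gap to Tap1, chr17:34187331-34187555, minus strand. Psmb8 is chr17:34197945-34198194, plus strand. Psmb10 is chr8:105938393-105938642, minus strand, and Psmb5 is chr14:54617996-54618245, minus strand.
Psmb9: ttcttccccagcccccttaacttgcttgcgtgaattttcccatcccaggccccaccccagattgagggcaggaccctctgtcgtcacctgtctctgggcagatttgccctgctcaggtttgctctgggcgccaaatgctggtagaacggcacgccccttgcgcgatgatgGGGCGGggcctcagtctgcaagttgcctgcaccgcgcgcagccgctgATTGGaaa
Psmb8: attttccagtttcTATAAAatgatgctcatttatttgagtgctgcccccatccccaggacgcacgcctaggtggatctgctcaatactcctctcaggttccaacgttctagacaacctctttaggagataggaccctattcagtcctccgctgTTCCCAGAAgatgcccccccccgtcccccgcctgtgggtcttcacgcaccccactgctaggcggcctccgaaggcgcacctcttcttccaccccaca
Psmb10: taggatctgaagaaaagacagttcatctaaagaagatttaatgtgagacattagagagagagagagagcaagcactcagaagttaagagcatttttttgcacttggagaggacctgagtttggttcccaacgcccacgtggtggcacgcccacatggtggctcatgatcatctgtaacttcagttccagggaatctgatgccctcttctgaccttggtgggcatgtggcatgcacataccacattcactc
Psmb5: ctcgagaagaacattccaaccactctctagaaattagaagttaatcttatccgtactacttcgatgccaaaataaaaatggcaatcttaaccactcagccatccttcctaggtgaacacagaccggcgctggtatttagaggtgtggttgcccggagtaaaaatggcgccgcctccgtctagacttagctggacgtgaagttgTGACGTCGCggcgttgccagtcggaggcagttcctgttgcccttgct

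The 6 motifs were searched on both strands. Psmb8 held TTCNNNGAA, the core of a STAT site, 97 to 89 bases before its start and the TATA box TATAAA 237 to 232 bases before it. Psmb9 held the GC box GGGCGG 55 to 50 bases before its start and the CCAAT box, read on the opposite strand, 8 to 4 bases before it. Psmb5 held TGACNNNGC, the core of the antioxidant response element bound by Nrf factors, 47 to 39 bases before its start. None of the 6 motifs was in the stretch of Psmb10, and the core of the interferon-stimulated response element was in none of the 4. In windows from 250 bases before to 50 after the start, among 45 promoter entries of 42 members, TGACNNNGC was in 6, the interferon-stimulated response element core in 5, TTCNNNGAA in 3, CCAAT in 15, GGGCGG in 24 and TATAAA in 4. The shares over all 32851 promoters of the same length were 12.4%, 3.44%, 8.30%, 37.4%, 35.7% and 13.6% in that order, against 13.3%, 11.1%, 6.67%, 33.3%, 53.3% and 8.89% of the members' entries. A match of letters is a description and no evidence of binding.

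The balance of messenger RNA within each catalytic pair can be read within a library, where a scaling factor of the library cancels. Protein and assembled proteasomes were not measured, and a ratio in bulk liver mixes cell types. The log2 ratio of Psmb8 to Psmb5, the pair that cuts after hydrophobic residues, ran from -0.99 to -0.83 in CD and from -2.65 to -1.64 in MCD. In the 4-week livers it ran from -2.40 to -1.75 in Ctrl and from -1.53 to -1.17 in STAM, and in the 10-week livers from -2.53 to -1.83 in Ctrl and from -1.53 to -1.25 in STAM. The ratio was thus 2.44-fold lower in MCD, 1.58-fold higher at 4 weeks and 1.66-fold higher at 10 weeks, with no overlap between groups. The ratio of Psmb9 to Psmb6 was 1.58-fold lower in MCD, 1.93-fold higher at 4 weeks and 3.49-fold higher at 10 weeks, also with no overlap. Over the 9 ratio tests, exact two-sided permutation gave p = 0.0286 for each of these MCD ratios and p = 0.00794 for each of these STAM ratios, the smallest that 4 against 4 and 5 against 5 samples can give, and Benjamini-Hochberg adjusted values of 0.0367 and 0.0179. The adjusted p of Psmb8 to Psmb5 in MCD was 0.0514 without CD replicate 3 or CD replicate 4 (log2 differences -1.27 and -1.29). For Psmb9 to Psmb6 in MCD it was 0.0735 without any 1 of the CD replicates (differences from -0.73 to -0.60). The groups did not overlap in any of these fits. With 1 library fewer the arrangements are so few that p moves in coarse steps, so these values do not show that a ratio rests on 1 liver.

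The pair of Psmb10 and Psmb7 did not follow the other pairs in MCD. Its log2 ratio ran from -3.63 to -3.18 in CD and from -3.04 to -2.47 in MCD, an increase of 1.48-fold with no overlap (exact permutation p = 0.0286, adjusted p = 0.0367). The ratio rose while Psmb10 itself was not called and Psmb7 was lower by 0.69 under the authors' scaling. Without CD replicate 3 or CD replicate 4 its adjusted p was 0.0735 (differences 0.47 and 0.58), with groups still apart and p in the same coarse steps. It was also 0.0735 with quantile normalization (difference 0.30). In STAM the ratio differed by 0.09 at 4 weeks (exact permutation p = 0.468) and by 0.20 at 10 weeks (p = 0.222), with overlapping groups. Per transcript length, the immunoproteasome member made up 25.1% ± 0.92 (SD, n = 4) of Psmb8 plus Psmb5 in CD, and 12.4% ± 3.49 in MCD. For Psmb9 plus Psmb6 the share was 25.4% ± 2.26 in CD and 17.9% ± 3.53 in MCD, and for Psmb10 plus Psmb7 it was 6.98% ± 0.83 and 10.0% ± 1.67. At 10 weeks the share of Psmb9 was 10.2% ± 2.71 in Ctrl and 27.9% ± 2.90 in STAM (n = 5 each).

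**Figure D2:**
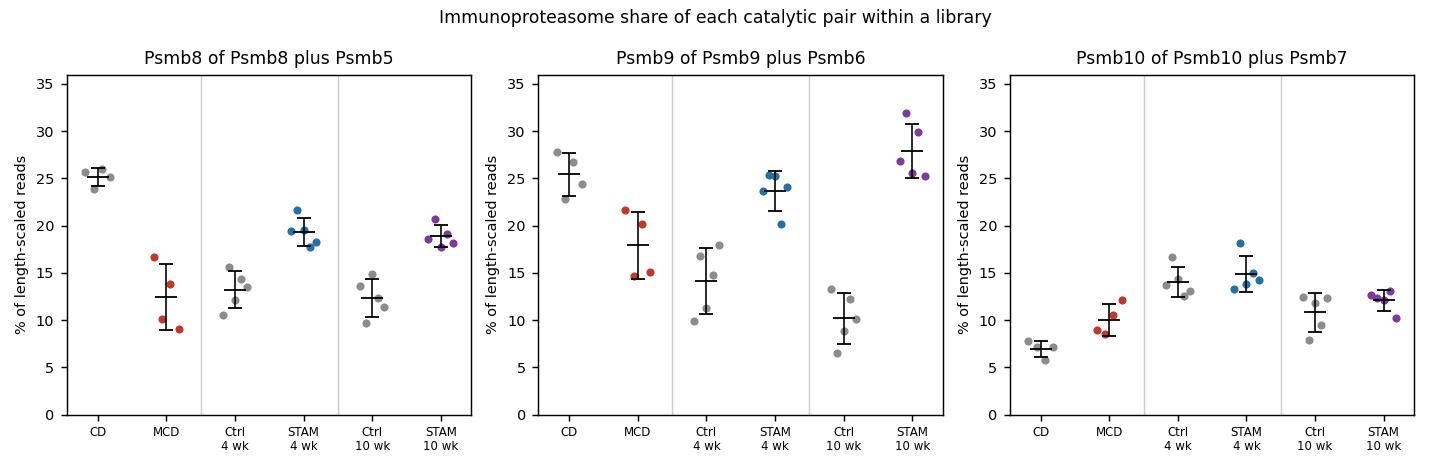
Share of the immunoproteasome member in each catalytic pair, in percent of the 2 genes' reads per transcript length, for every liver in the 6 groups. Points are livers and bars are the mean with 1 SD. The share of Psmb8 runs from 23.9% to 26.0% in CD and from 9.04% to 16.6% in MCD, and that of Psmb9 from 6.54% to 13.3% in 10-week Ctrl and from 25.3% to 31.9% in 10-week STAM.

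Markers of blood cells, which carry immunoproteasomes, moved in these livers too. Beside the marker counts, 22.6%, 6.52% and 25.3% of all genes were higher in MCD, at 4 weeks and at 10 weeks. The shares of all genes lower were 20.1%, 3.27% and 22.5%. Ptprc, the CD45 antigen of all leukocytes, rose in each comparison, by 0.71 in MCD (limma adjusted p = 0.00659), 0.64 at 4 weeks (0.00286) and 0.83 at 10 weeks (5e-05). The 6 macrophage and monocyte markers together made 254 to 396 CPM in CD and 428 to 741 in MCD, 282 to 356 in 4-week Ctrl and 384 to 507 in STAM, and 251 to 354 in 10-week Ctrl and 361 to 460 in STAM. Of them 3 rose in MCD, 4 at 4 weeks and 5 at 10 weeks. The 4 dendritic cell markers summed to 3.0 to 6.81 CPM in CD and 12.1 to 22.3 in MCD, with 2 higher, to 1.68 to 3.54 and 3.33 to 5.23 at 4 weeks, with 1 higher, and to 1.85 to 2.62 and 5.94 to 15.3 at 10 weeks, with 3 higher. The 7 T and NK cell markers summed to 3.46 to 5.79 CPM in CD and 3.83 to 5.47 in MCD, to 2.64 to 4.65 and 3.55 to 5.59 at 4 weeks, and to 2.34 to 3.59 and 4.10 to 7.47 at 10 weeks, where 3 were higher. The 4 B cell markers were not called in any table, while of the 4 cholangiocyte markers 3, 2 and 3 were higher in MCD, at 4 weeks and at 10 weeks. Of the 4 stellate cell markers 3 were higher in MCD, 1 was lower at 4 weeks, and 2 were higher and 1 lower at 10 weeks. Of the 4 endothelial markers 1 was lower in MCD, 2 were lower at 4 weeks and 2 higher at 10 weeks. Of the T and NK cell markers 1 was higher and 1 lower in MCD. No marker was at 0 in all libraries of a table. In MCD Ptprc and the called macrophage and dendritic cell markers were higher while Psmb8 and Psmb9 were lower, and in STAM at both ages these markers and both genes were higher. The part of any of these cell types in the differences of Psmb8 and Psmb9 was not tested. Hepatocyte markers, which made 42548 to 149897 CPM in these livers, were lower for 5 of 6 genes in MCD, 1 at 4 weeks and 6 at 10 weeks under the authors' scaling.

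The PA28 activator, which caps the immunoproteasome, was lower in MCD under the authors' scaling and was not called higher in STAM. Psme1 was at 5.47, 5.39, 5.53 and 5.43 log2 CPM in CD and at 5.02, 4.83, 4.97 and 4.85 in MCD. These groups did not overlap, and the difference was -0.54 (SE 0.09, limma adjusted p = 0.000479). Psme2 was at 5.34, 5.44, 5.53 and 5.53 in CD and at 5.23, 5.11, 5.11 and 4.97 in MCD, a difference of -0.36 (SE 0.10, limma adjusted p = 0.00894). With total-read scaling the MCD differences were -0.11 for Psme1 and 0.065 for Psme2, neither of which was called. At 4 weeks the differences were 0.20 (95% interval 0.01 to 0.38) for Psme1 and 0.03 (-0.12 to 0.19) for Psme2, and neither passed the test. At 10 weeks Psme1 ran from 5.34 to 5.52 in Ctrl and from 5.22 to 5.43 in STAM, which overlapped. Psme2 ran from 5.24 to 5.38 in the 10-week Ctrl livers and from 4.87 to 5.04 in the STAM livers, lower by 0.37 (SE 0.06, limma adjusted p = 0.000247), but by 0.08 without a call when scaled by total reads. Psme2b, the copy of Psme2, held 27 to 61 reads per library and was not called under the authors' scaling. Some of the other scalings called it in MCD and at 10 weeks. Reads shared between Psme2 and Psme2b could not be told apart, since no source used here gives the counting rule.

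Among the other activators, Psme4 (PA200), which opens the barrel without ATP, was lower in 2 comparisons under the authors' scaling. Under that scaling Psme3, the nuclear activator PA28 gamma, was not called in any. Psme4 was at 7.28, 7.49, 7.63 and 7.61 log2 CPM in CD and at 6.85, 7.16, 6.73 and 6.77 in MCD, with no overlap and a difference of -0.62 (SE 0.12, limma adjusted p = 0.00101). By total reads it was -0.20 and not called (limma adjusted p = 0.15). At 10 weeks Psme4 was at 7.53, 7.69, 7.64, 7.68 and 7.51 in Ctrl and at 7.28, 7.05, 7.18, 7.04 and 7.05 in STAM. This decrease of 0.49 (SE 0.07, limma adjusted p = 9.84e-05) held under all 4 scalings, at 0.20 to 0.49. At 4 weeks the Psme4 difference was -0.00 (95% interval -0.19 to 0.18). Psme3 differed by 0.21 in MCD, 0.14 at 4 weeks and -0.17 at 10 weeks under the authors' scaling. In MCD it was called higher under each other scaling. The Psme3 difference there was 0.63 by total reads (limma adjusted p = 0.000193) and 0.38 with quantile normalization (0.00548). Relative to the constitutive subunits it was 0.37 (0.0072). At 4 weeks Psme3 was called by total reads (0.22, limma adjusted p = 0.0434). Without Ctrl replicate 1 the 10-week difference of Psme3 was -0.23 and passed the test (limma adjusted p = 0.00758).

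Psmf1 (PI31), a protein that inhibits the isolated core, rose in STAM at both ages. It was at 4.81, 5.06, 5.03, 4.91 and 5.12 log2 CPM in 4-week Ctrl and at 5.34, 5.23, 5.43, 5.21 and 5.46 in STAM. At 10 weeks it was at 4.98, 4.86, 4.93, 4.94 and 4.94 in Ctrl and at 5.46, 5.57, 5.70, 5.45 and 5.33 in STAM. Groups did not overlap at either age, and the differences were 0.35 (SE 0.08, limma adjusted p = 0.0163) and 0.58 (SE 0.07, limma adjusted p = 3.36e-05). The 10-week call held under all 4 scalings, and the 4-week call was lost when scaled to the constitutive subunits (0.30, limma adjusted p = 0.0636). In MCD the difference was 0.26 with overlapping groups and was not called under the authors' scaling (limma adjusted p = 0.0599). Some of the other scalings called Psmf1 in MCD.

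The constitutive subunits were on average lower in MCD and in STAM at 10 weeks under the authors' scaling, with small differences that depended on that scaling. In MCD 14 of the 31 were lower and 1 higher (45.2% and 3.23%, beside 20.1% and 22.6% of all genes), with a median of -0.19. At 4 weeks 1 was higher and 0 were lower, beside 6.52% and 3.27% of all genes, with a median of 0.01. At an unadjusted p under 0.05 the 4-week counts were 4 and 0. At 10 weeks 21 were lower and 1 higher (67.7% and 3.23%, beside 22.5% and 25.3%), with a median of -0.25. Scaled by total reads, the counts were 13 higher and 1 lower in MCD (median 0.23) and 7 higher and 0 lower at 10 weeks (median 0.04). All genes moved further under that scaling: 49.6% of them were higher and 7.98% lower in MCD (median 0.49), and 45.8% higher and 6.22% lower at 10 weeks (median 0.33), beside 41.9% and 22.6% of the constitutive subunits higher. With quantile normalization 3 constitutive subunits were higher and 4 lower in MCD (9.68% and 12.9%, beside 20.3% and 20.5% of all genes). At 10 weeks 3 were higher and 9 lower (9.68% and 29%, beside 18.9% and 22.4%). As a share of all assigned reads, the 31 genes took 0.227% ± 0.0024 (SD, n = 4) in CD and 0.272% ± 0.023 in MCD, 0.216% ± 0.013 in 4-week Ctrl and 0.236% ± 0.011 in STAM (n = 5), and 0.244% ± 0.013 in 10-week Ctrl and 0.256% ± 0.0055 in STAM. The share ran from 0.224% to 0.229% in CD and from 0.252% to 0.300% in MCD, which did not overlap, whereas the STAM and Ctrl livers overlapped at both ages (Ctrl up to 0.232% and STAM from 0.223% at 4 weeks, Ctrl up to 0.265% and STAM up to 0.264% at 10 weeks). These shares were not tested. The mean share was higher in each disease group, and by the authors' scaling the subunits were lower in MCD and at 10 weeks, so no direction is given for the constitutive subunits as a whole.

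By role, the alpha ring held 4 called genes of 7 in MCD, all lower (Psma1, Psma2, Psma3 and Psma5), and 5 lower at 10 weeks. These are 57.1% and 71.4% of the ring, beside 20.1% and 22.5% of all genes lower. Psma1 had a mean of 6.80 ± 0.13 log2 CPM (SD, n = 4) in CD and 6.31 ± 0.09 in MCD, with no overlap, a difference of -0.50 (SE 0.10, limma adjusted p = 0.00115). Psma5 and Psma2 differed by -0.50 and -0.47 in MCD, and Psma3 by -0.30, a call that was lost without CD replicate 4, MCD replicate 3 or MCD replicate 4 (limma adjusted p = 0.0612 to 0.0791). At 10 weeks Psma4 and Psma3 had the largest decreases of the ring. Psma4 was at 6.66, 6.75, 6.76, 6.76 and 6.61 in Ctrl and at 6.30, 6.23, 6.26, 6.31 and 6.22 in STAM, with no overlap and a difference of -0.45 (SE 0.06, limma adjusted p = 3.71e-05), and Psma3 fell by 0.40. Psma4 in MCD differed by 0.00 (95% interval -0.23 to 0.23). Scaled by total reads, none of these MCD and 10-week alpha ring differences was a call in the lower direction.

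Among the catalytic subunits of the constitutive beta ring, Psmb7, the trypsin-like site, was lower in MCD under all 4 scalings. It was at 6.72, 6.88, 6.99 and 6.93 log2 CPM in CD and at 6.13, 6.29, 6.18 and 6.14 in MCD, with no overlap, and differed by -0.69 (SE 0.09, limma adjusted p = 6.67e-05), or by -0.27 when scaled by total reads (0.0194). Psmb5, the chymotrypsin-like site, was at 5.67, 5.69, 5.70 and 5.64 in CD and at 5.63, 5.84, 5.92 and 6.35 in MCD. In this gene 1 MCD liver lay below all CD livers and the rest above them, and the difference of 0.26 was not called (limma adjusted p = 0.132). Without MCD replicate 1 it was 0.36 (0.0369), and scaled by total reads 0.68 (0.002). Without MCD replicate 4 it was 0.12, and over the 8 fits that left out 1 liver the limma adjusted p reached 0.357. In STAM Psmb5 differed by 0.20 at 4 weeks (limma adjusted p = 0.109) and by 0.08 at 10 weeks (0.323) under the authors' scaling, without a call. Under the other scalings it was higher: at 10 weeks by 0.37 by total reads (limma adjusted p = 0.000269), 0.24 with quantile normalization (0.00646) and 0.29 relative to the constitutive subunits (0.000931), and at 4 weeks by 0.28 by total reads (0.0352) and 0.24 with quantile normalization (0.0494), but not relative to the constitutive subunits (0.16, 0.152). Psmb6, the caspase-like site, differed by -0.16 in MCD and was not called under any scaling there. At 10 weeks Psmb6 and Psmb7 were lower by 0.26 and 0.28 under the authors' scaling, and stood 0.032 and 0.014 above Ctrl, not called, by total reads. Of the 4 structural beta subunits, Psmb1, Psmb3 and Psmb4 were lower in MCD by 0.24 to 0.36 and all 4 were lower at 10 weeks by 0.23 to 0.36. The MCD call of Psmb3 was lost in 6 of 8 fits that left out 1 liver (limma adjusted p up to 0.0738), all except those without CD replicate 4 or MCD replicate 4. That of Psmb4 was lost in 6 as well (0.0629 to 0.111), all except those without CD replicate 1 or MCD replicate 4.

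**Figure D3:**
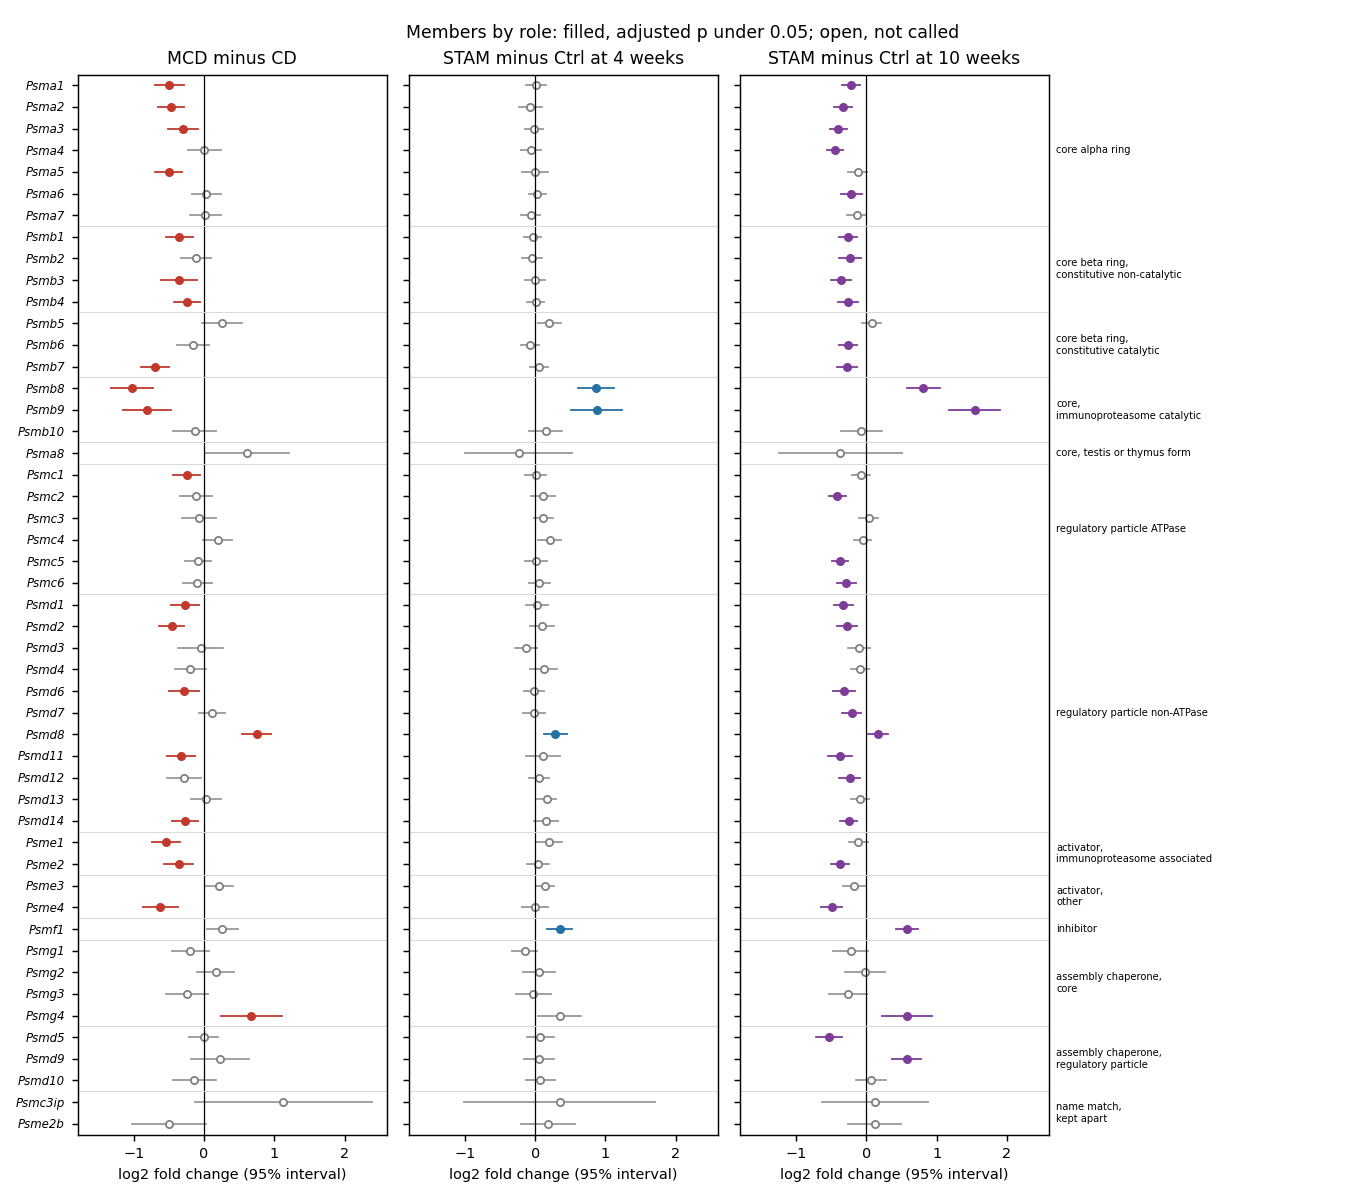
Log2 fold change of the 49 tested members in each comparison under the authors' scaling, grouped by role, with 95% intervals from limma. Filled points passed an adjusted p under 0.05. Most filled points are to the left of 0 in MCD (19 of 21) and in STAM at 10 weeks (24 of 30), and the 4 filled points at 4 weeks are to the right.

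In the regulatory particle, Psmd8, the subunit whose joining completes the lid, was called higher in all 3 comparisons under all 4 scalings, but only the MCD call held when single livers were left out. It was at 6.54, 6.59, 6.66 and 6.62 log2 CPM in CD and at 7.27, 7.51, 7.18 and 7.44 in MCD. Each MCD liver was above each CD liver, and the increase of 0.75 (SE 0.10, limma adjusted p = 5.82e-05), or 67.9%, was the largest among the constitutive subunits. At 4 weeks it was at 6.48, 6.36, 6.38, 6.49 and 6.48 in Ctrl and at 6.71, 6.51, 6.70, 6.82 and 6.88 in STAM, without overlap, and higher by 0.29 (SE 0.07, limma adjusted p = 0.0303). At 10 weeks it ran from 6.48 to 6.59 in Ctrl and from 6.59 to 6.91 in STAM, with overlap, and was higher by 0.17 (SE 0.06, limma adjusted p = 0.0465). The 4-week call was lost in 7 of 10 fits that left out 1 liver, all but those without Ctrl replicate 1, Ctrl replicate 4 or STAM replicate 2, with differences from 0.25 to 0.30 and limma adjusted p from 0.0514 to 0.0778. The 10-week call was lost in 8 of 10 such fits, all but those without Ctrl replicate 1 or STAM replicate 1 (differences from 0.12 to 0.18, limma adjusted p from 0.0568 to 0.105), as well as without the filter on low values and with the replicate block. With the block the 4-week call was lost too (limma adjusted p = 0.0581). In the authors' deposited table Psmd8 had an adjusted p of 6.38e-08 in MCD, 0.106 at 4 weeks and 0.205 at 10 weeks. Relative to the mean of the 31 constitutive subunits of the same library, Psmd8 was higher by 0.91 in MCD, 0.24 at 4 weeks and 0.38 at 10 weeks, with no overlap between groups in any of the 3 tables. That mean includes Psmd8. Under the authors' scaling it was 6.30 in CD and 6.13 in MCD, 6.08 in 4-week Ctrl and 6.12 in STAM, and 6.36 in 10-week Ctrl and 6.14 in STAM. The relative values are therefore no separate test of the calls.

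Other members of the regulatory particle were mostly lower or not called. Of the 11 non-ATPase subunits 5 (45.5%) were lower in MCD and 7 (63.6%) at 10 weeks. Of the 6 ATPases 1 (16.7%) and 3 (50%) were lower. The shares of all genes lower were 20.1% and 22.5%, so the ATPase count in MCD was near the background. Psmd2, a scaffold subunit that receives ubiquitin-like domains, ran from 7.77 to 7.80 log2 CPM in CD and from 7.27 to 7.40 in MCD, a difference of -0.46 (SE 0.08, limma adjusted p = 0.000681). Psmd11, Psmd6, Psmd14, Psmd1 and the ATPase Psmc1 were lower in MCD by 0.25 to 0.33. Of these, Psmd11 kept its call without any 1 liver. The call of Psmd6 was lost in 6 of 8 such fits, all but those without CD replicate 1 or MCD replicate 2 (limma adjusted p from 0.0605 to 0.0941), and that of Psmc1 in 6, all but those without CD replicate 3 or MCD replicate 2 (0.0566 to 0.111). Psmd1 lost it without CD replicates 3 or 4 or MCD replicates 1 or 3 (0.0513 to 0.0759), and Psmd14 without CD replicate 3 or MCD replicate 3 (0.0575 and 0.0629). At 10 weeks the ATPases Psmc2 and Psmc5 were lower by 0.41 and 0.37 and the lid subunit Psmd11 by 0.37, each without overlap between groups. By total reads no non-ATPase subunit or ATPase was called lower in MCD or at 10 weeks.

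**Figure D4:**
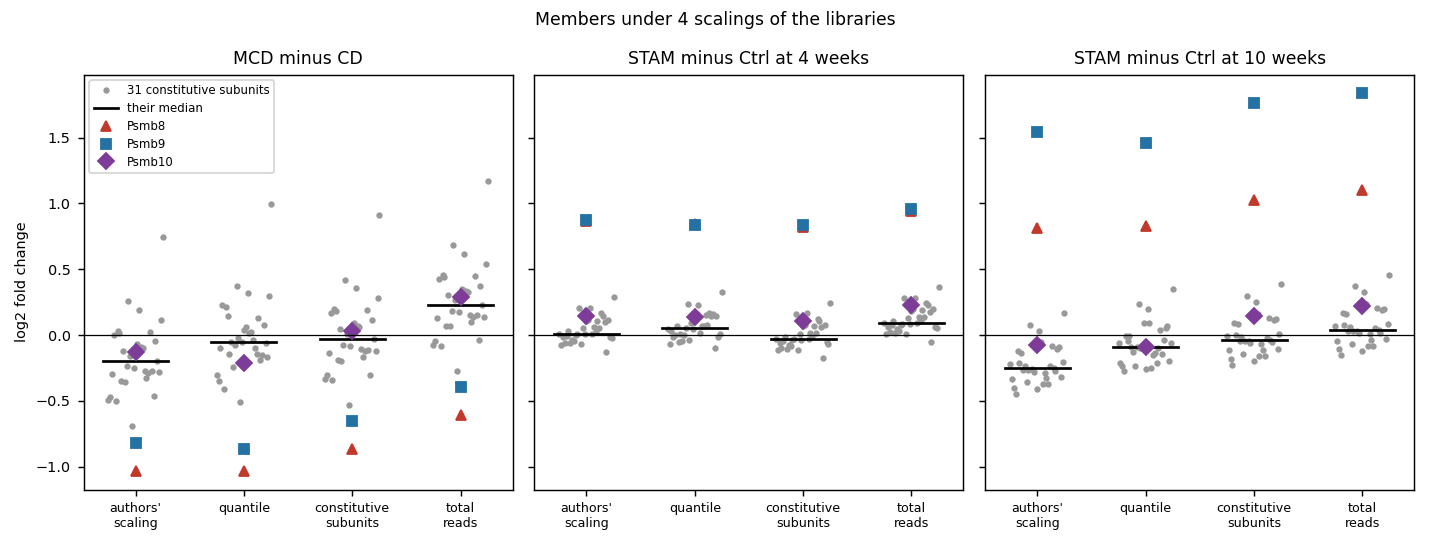
Log2 fold change of the 31 constitutive subunits (grey points, median as a bar) and of Psmb8, Psmb9 and Psmb10 under 4 scalings of the libraries, in 3 panels for the comparisons. In MCD the median of the constitutive subunits moves from -0.19 under the authors' scaling to 0.23 by total reads, while Psmb8 lies below it under each scaling and both Psmb8 and Psmb9 lie above it in STAM.

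Assembly factors changed singly. Psmg4, a chaperone of alpha ring assembly, was at 1.13, 1.51, 1.08 and 0.75 log2 CPM in CD and at 1.80, 1.78, 1.89 and 1.70 in MCD, higher by 0.67 (SE 0.20, limma adjusted p = 0.0172). At 10 weeks it was at 1.17, 1.5, 1.57, 1.15 and 1.13 in Ctrl and at 1.77, 2.23, 1.79, 1.97 and 1.66 in STAM, higher by 0.58 (SE 0.16, limma adjusted p = 0.0101). Neither comparison overlapped, and with quantile normalization the differences were 0.24 and 0.08 and not called. Psmg4 held 25 to 103 reads per library. Psmd9, a chaperone of the ATPase ring, was at 4.92, 5.17, 4.76, 5.17 and 5.21 in 10-week Ctrl and at 5.71, 5.56, 5.73, 5.66 and 5.45 in STAM. Psmd5, which chaperones other ATPases of the same ring, was at 5.42, 5.88, 5.69, 5.58 and 5.59 in 10-week Ctrl and at 5.24, 4.94, 5.05, 5.16 and 5.11 in STAM. So these chaperones of 1 ring moved apart without overlap, Psmd9 by 0.57 (SE 0.09, limma adjusted p = 0.00026) and Psmd5 by -0.53 (SE 0.09, limma adjusted p = 0.000237), under all 4 scalings. Neither was called in MCD or at 4 weeks under the authors' scaling. The other chaperones Psmg1, Psmg2, Psmg3 and Psmd10 were not called in any comparison under that scaling. Under some of the other scalings Psmg2 and Psmg3 were called in MCD, and Psmg1, Psmg3 and Psmd10 at 10 weeks.

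Of the tissue-restricted core forms, Psmb11, the thymus subunit, had 0 reads in all 28 libraries, of 572 M reads in total, which allows a level of up to 0.00524 CPM (counting error only). It was the single member that did not pass the filter. Psma8, an alpha subunit of the testis, held 7 to 64 reads per library. Its differences of 0.61 in MCD, -0.23 at 4 weeks and -0.37 at 10 weeks were not called under the authors' scaling. Psmc3ip held 1 to 22 reads per library and was not called under the authors' scaling. Some of the other scalings called both Psma8 and Psmc3ip in MCD. Per kilobase of counted transcript, the constitutive catalytic subunits were well above the immunoproteasome ones in every group. In CD, Psmb5, Psmb6 and Psmb7 were at 67.1, 65.1 and 122 CPM per kilobase, against 22.5, 22.2 and 9.09 for Psmb8, Psmb9 and Psmb10. In 10-week STAM they were at 105, 67.2 and 96.2 CPM per kilobase, against 24.3, 26.0 and 13.3.

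The calls of MCD and of 10-week STAM, which share no sample, fell on partly shared members. Of the 19 members lower in MCD and the 24 lower at 10 weeks, 14 were lower in both, or 73.7% and 58.3% of each list and 28.6% of the 49 tested. Of the 14986 genes tested in both comparisons, 1506 were lower in both, or 49% and 43.8% of each list and 10% of those tested. These counts rest on the authors' scaling: of the 14 members, Psmb7 in MCD and Psme4 at 10 weeks were lower under all 4 scalings, and no member was so in both comparisons. The 14 were Psma1, Psma2, Psma3, Psmb1, Psmb3, Psmb4, Psmb7, Psmd1, Psmd2, Psmd6, Psmd11, Psmd14, Psme2 and Psme4. Psmd8 and Psmg4 were higher in both. Psmb8 and Psmb9 were the 2 members lower in MCD and higher at 10 weeks, and 16 members were not called in any comparison.

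Whether effects differed was tested as a difference of differences with limma. Between MCD and 4-week STAM, 19 of 49 members differed, 1 with the MCD effect above and 18 below, beside 11.7% and 14.4% of all genes tested (26.1% in either direction). Psmb8 differed by -1.89 (SE 0.19, limma adjusted p = 3.03e-07) and Psmb9 by -1.70 (SE 0.24, limma adjusted p = 3.11e-05), and the next were Psmb7 by -0.75 and Psme1 by -0.74. Between MCD and 10-week STAM 12 members differed, 6 above and 6 below, beside 12.9% and 15% of all genes (27.9% in either direction). Psmb9 differed by -2.36 (SE 0.24, limma adjusted p = 9.7e-07) and Psmb8 by -1.84 (SE 0.18, limma adjusted p = 4.26e-07). Psmd8 stood 0.58, Psmd5 0.52 and Psma4 0.45 above in MCD.

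Between the ages of STAM, 25 of 49 members had a different effect at 10 than at 4 weeks, 1 above and 24 below, beside 8.89% and 11.2% of all genes tested (20% in either direction). Of the constitutive subunits 19 of 31 were lower at 10 weeks relative to 4 weeks, led by Psmc2 (-0.52, SE 0.09, limma adjusted p = 0.000841) and Psmd11 (-0.48, SE 0.14, limma adjusted p = 0.0197). By total reads 5 members differed between the ages. The member above was Psmd9, by 0.52. For Psmb8 the difference between the ages was -0.05 (95% interval -0.40 to 0.29). For Psmb9 it was 0.67 (0.14 to 1.19), which missed the threshold (limma adjusted p = 0.0662). It passed when scaled by total reads (0.88, limma adjusted p = 0.0131) or to the constitutive subunits (0.93, 0.017), in limma voom (0.70, 0.0351), and without Ctrl replicate 1 of 10 weeks (0.80, 0.0215) or Ctrl replicates 1 or 3 of 4 weeks (0.80, 0.0154, and 0.74, 0.0483). Only these 3 of the 20 fits that left out 1 library passed. Over the 20 fits the difference was lowest, at 0.53, without Ctrl replicate 2 of 10 weeks, and the limma adjusted p reached 0.122.

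Genes that work with the proteasome were read from lists chosen by function. Beside the counts of these lists, 22.6%, 6.52% and 25.3% of all genes were higher in MCD, at 4 weeks and at 10 weeks. The shares of all genes lower were 20.1%, 3.27% and 22.5%. Of 11 genes of class I antigen processing and the interferon-gamma response, 8 were lower in MCD, 6 were higher at 4 weeks, and 6 were higher and 2 lower at 10 weeks. Tap1, a subunit of the peptide transporter, ran from 5.09 to 5.53 log2 CPM in CD and from 4.05 to 4.59 in MCD, and was lower by 0.97 (limma adjusted p = 0.000133). B2m, the light chain of class I molecules, was lower by 0.90, H2-K1, a class I heavy chain, by 0.81 and Nlrc5, an activator of class I genes, by 0.60. At 4 weeks Tap1 was higher by 0.82, H2-D1 by 0.71 and B2m by 0.43. At 10 weeks Tap1 was higher by 1.26, Tap2 by 0.93 and Nlrc5 by 0.63, while Irf1 was lower by 0.56 and the peptidase Erap1 by 0.39. The class I heavy chains are near copies, so the split of reads between H2-K1 and H2-D1 is uncertain. Ifng itself was close to 0 reads and not called. The list's median was -0.49 in MCD, 0.40 at 4 weeks and 0.27 at 10 weeks, beside medians of all genes of 0.07, 0.01 and 0.05. By total reads 3 were lower in MCD, 8 higher at 4 weeks and 8 higher at 10 weeks, beside 7.98%, 9.02% and 45.8% of all genes.

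The transcription factor Nfe2l1 (Nrf1), which raises genes of proteasome subunits when the proteasome is inhibited, was higher in MCD under the authors' scaling. Of the 5 genes listed for proteasome gene induction, 1 was higher and 2 lower in MCD, beside 22.6% and 20.1% of all genes. At 10 weeks 0 of this list were higher and 3 lower, beside 25.3% and 22.5%. Nfe2l1 ran from 7.21 to 7.56 log2 CPM in CD and from 7.67 to 7.93 in MCD, higher by 0.36 (limma adjusted p = 0.0146). It was not called at 4 or 10 weeks (0.00 and 0.02). Ddi2, the protease that activates Nfe2l1, was lower by 0.74 in MCD and by 0.34 at 10 weeks, and Vcp, the segregase that extracts it from the membrane, by 0.42 and 0.33. Of 7 proteasome genes of other names 2 were lower in MCD, Pomp by 0.47 and AI314180 by 0.52, and 4 were lower at 10 weeks. Pomp is the maturation factor of the core, and AI314180 is the mouse symbol of Ecm29, a scaffold of the whole particle. Of 13 ubiquitin genes and shuttle factors 2 were higher and 2 lower in MCD, beside 22.6% and 20.1% of all genes. At 10 weeks 1 was higher and 7 lower, beside 25.3% and 22.5%. Zfand2a, a proteasome partner induced by arsenite, was higher by 0.98 in MCD. At 4 weeks limma called 0 genes of these 3 lists in either direction, and at an unadjusted p under 0.05 it was 4 higher and 1 lower. By total reads the lists' MCD counts became 2 higher and 0 lower for the genes of other names, 3 and 1 for the induction list and 7 and 0 for the ubiquitin list. Of all genes 49.6% were then higher and 7.98% lower.

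Heat shock chaperones, which handle unfolded proteins beside the proteasome, were lower for 8 of 10 genes in MCD and at 10 weeks and higher for 2 at 4 weeks. Hsph1 was lower by 1.19 in MCD (limma adjusted p = 0.00267) and by 1.42 at 10 weeks (8.3e-07). Hsp90aa1 was lower by 1.05 and 0.94. The genes higher at 4 weeks were Hspa1a, by 2.11, and Hspa1b, by 1.69, which are near-identical copies whose reads cannot be told apart. The CD livers spread widely in this list, for Hspa1b from 1.80 to 4.23 log2 CPM against 1.07 to 1.66 in MCD. By total reads 2 were lower in MCD and 6 at 10 weeks, beside 7.98% and 6.22% of all genes.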

How the data were processed

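Liver messenger RNA was sequenced from poly(A) libraries, and the submitters' processing notes name STAR 2.4.2a and mm10. No source used here gives the counting rule. The deposited values are log2 CPM (log2 of counts per 1 M reads) with a prior of 0.25 reads, scaled by the authors within each of 3 tables, per the file headers and the values themselves. Whole reads could be recovered from them, within 0.05 reads, for 100% of values, and gave depths of 16.2 to 25.9 M reads per library. Every pair of replicates differed by more than sampling noise (chi-square per degree of freedom of at least 11.5).

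Genes above the 25th percentile of a table's mean were tested with limma 3.58.1 (trend and robust, statmod 1.5.0, R 4.3.3), with Benjamini-Hochberg adjustment over all genes tested. Differences of effects were fitted over 4 groups in 1 model. Ratios of subunit pairs were tested by exact permutation. The fitting script was tested on simulated data. Alternatives were scaling by total reads, quantile normalization, scaling to the constitutive subunits, a prior of 2 reads, no filter, limma voom on recovered reads, a replicate block, the authors' deposited table, and leaving out each library. Fold changes and adjusted p-values of the authors' deposited table are named as such.

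The members and the lists of related genes and markers were chosen with earlier results of these data known. Named with values were the 5 immunoproteasome genes, the 3 constitutive catalytic subunits, Psme3, Psme4, the name matches, members below the filter, and up to 10 further called members per comparison with the largest change. Of each related list up to 4 called genes were named, and Nfe2l1. The values of 1 gene that this rule names are not reported here. Other members were named by role after their values were seen. RefSeq held all 50 member symbols. Intervals and limits cover counting error only where they come from reads. Table starts plus 1 matched RefSeq for 33 members, and positions are given 1-based.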

Additional observations from a re-analysis of the deposited data

Results flagged for a closer look

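Among 78 groups of livers checked for a sample far from the others, 2 stood out, and chance gives about 1 in 20 groups. Psmb6 in CD replicate 2 was at 6.20 log2 CPM, above the other CD livers. Psmb10 in 10-week STAM replicate 5 was at 3.66 log2 CPM, below the other STAM livers.

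Several effects differed between models or ages by limma's test of the difference. Between MCD and 4-week STAM the differences were -1.89 for Psmb8, -1.70 for Psmb9, -0.74 for Psme1, -0.39 for Psme2, -0.75 for Psmb7 and -0.62 for Psme4. Between MCD and 10-week STAM they were -1.84 for Psmb8, -2.36 for Psmb9, -0.43 for Psme1, -0.42 for Psmb7 and 0.38 for Psme3. Between 10 and 4 weeks of STAM they were -0.31 for Psme1, -0.40 for Psme2, -0.33 for Psmb7, -0.31 for Psme3 and -0.48 for Psme4. The difference of Psme1 between the ages had a limma adjusted p of 0.0419 and passed the threshold narrowly. It missed it without Ctrl replicates 1, 2 or 3 or STAM replicates 1, 2 or 3 of 10 weeks, and without Ctrl replicates 1 or 3 or STAM replicates 1, 2, 4 or 5 of 4 weeks (differences from -0.32 to -0.26, limma adjusted p from 0.0507 to 0.0793). With the replicate block it was also missed (0.0852). Several of these differences depended on the scaling. Between the ages Psme1 was at -0.095 by total reads (limma adjusted p = 0.587), -0.22 with quantile normalization (0.197) and -0.051 relative to the constitutive subunits (0.790), and Psme2 at -0.19 by total reads (0.137) and -0.15 relative to the constitutive subunits (0.318). Between MCD and 4-week STAM Psme2 was at -0.046 by total reads (0.773) and -0.19 relative to the constitutive subunits (0.324), and between MCD and 10-week STAM Psme1 was at -0.29 by total reads (0.0602). The 3 differences share samples with one another.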

How the results depend on the processing

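Scaled by total reads, 21 members were higher and 2 lower in MCD, 8 higher at 4 weeks, 13 higher and 2 lower at 10 weeks, and 5 differed between the ages. Of all genes 49.6%, 9.02% and 45.8% were then higher, beside 42.9%, 16.3% and 26.5% of the members. That scaling turned the direction of 24, 12 and 25 members in the 3 comparisons, of which 6, 0 and 4 were then called. Of the members called under the authors' scaling 10 turned in MCD, 0 at 4 weeks and 12 at 10 weeks, and 0 of these were then called (at limma adjusted p of 0.0857 or more). Among them were Psme2 (0.065), Psmb3 (0.065), Psmb1 (0.072), Psmd11 (0.10) and Psma3 (0.13) in MCD and Psmb6 (0.032) and Psmb7 (0.014) at 10 weeks. With quantile normalization 5 were higher and 11 lower in MCD, beside 20.3% and 20.5% of all genes. At 10 weeks 15 were then lower, beside 22.4%, and 10 differed between the ages. Also with quantile normalization, log2 Psmb10/Psmb7 in MCD was 0.30 (exact permutation, adjusted p = 0.0735). Scaled to the constitutive subunits, 8 were higher and 9 lower in MCD, beside 30.3% and 12.9% of all genes. At 10 weeks 11 were higher and 6 lower under that scaling, beside 39.2% and 9.07%. It left 6 that differed between the ages and 10 between MCD and 4-week STAM. The authors' deposited table called 12 lower in MCD, beside 13.9% of all its genes. Beyond the scaling itself, the cause was not tested.

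Replicate numbers did not pair the livers: same-number correlations ran from -0.122 to 0.008, and 0 pairs were over 0.1. With the replicate block 11 members were lower in MCD, beside 16.7% of all genes, and 16 differed between the ages. In the paired exact permutation of the ratios under the block, Psmb8/Psmb5 (-1.29 in MCD, 0.66 and 0.73 in STAM), Psmb9/Psmb6 (-0.66, 0.95 and 1.80) and Psmb10/Psmb7 in MCD (0.56) had adjusted p of 0.161 in MCD and 0.141 in STAM. With 4 or 5 pairs this test cannot give p below 0.125 or 0.0625, so no ratio could pass.

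Leaving out 1 library gave 2 to 3 higher and 12 to 18 lower in MCD, 3 to 4 higher and 0 lower at 4 weeks, and 5 to 6 higher and 23 to 25 lower at 10 weeks. It gave 18 to 26 members that differed between the ages, 13 to 19 between MCD and 4-week STAM and 11 to 14 between MCD and 10-week STAM. The log2 ratio Psmb8/Psmb5 ran from -1.47 to -1.13 in MCD, 0.57 to 0.74 at 4 weeks and 0.64 to 0.81 at 10 weeks. Psmb9/Psmb6 ran from -0.78 to -0.55, 0.81 to 1.06 and 1.64 to 1.92, and Psmb10/Psmb7 from 0.45 to 0.65, 0.01 to 0.17 and 0.08 to 0.27. A prior of 2 reads ended no call of a member, and no filter ended that of Psmd8 at 10 weeks. Few reads limit Psma8, Psmc3ip, Psme2b, Psmg4 and Ifng.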
